A study of Mus musculus with 11 samples.

Results

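The genes of the proteasome, its regulators and its assembly factors were followed across total and polysomal lung RNA of wild-type mice and mice lacking both 4E-BP proteins. Members were chosen by gene symbol: names that begin with Psm, a letter from a to g and a number, together with Pomp. Of 14351 genes with a probe set on the array, 47 met this rule, and 46 of the 8085 genes bright enough to be tested were among them. The exception was Psmb11, the thymus-specific catalytic subunit, which lay between 1.94 and 2.04 log2 on all 11 arrays. Of the 47, 45 encode subunits, activators, an inhibitor or assembly factors. Psmc3ip and Psme3ip1 only carry a subunit's name because their products bind one, and they are given apart. Psma3, Psma8, Psmb3 and Psmg4 were matched to no probe set and were not analysed here.

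All mice were Balb/c and had been fed the purified diet AIN-93M from 5 weeks of age. The knockout mice were 4ebp1-/-/4ebp2-/-, that is, without Eif4ebp1 and Eif4ebp2, whose products bind the cap-binding factor eIF4E and restrain the start of translation, and they came from another source than the purchased wild-type mice. Total RNA was measured on 3 wild-type and 3 knockout arrays, and polysomal RNA, pooled from gradient fractions 7 to 10 with 3 or more ribosomes per transcript, on 2 wild-type and 3 knockout arrays. Age at harvest, sex and whether each array held its own mouse are not given in the sources used here, so p-values measure the spread between arrays, which may be technical. Values are log2 GCRMA values, whose array medians lay between 4.96 and 5.04.

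The proteasome is the cell's main machine for breaking down ubiquitin-tagged proteins. Its 20S core is a barrel of alpha rings, which gate the channel, around beta rings, which hold the catalytic sites, and a 19S cap recognises, unfolds and feeds in the substrate. In interferon-stimulated and immune cells the catalytic beta subunits are exchanged for immunoproteasome versions, which, with the activator built from Psme1 and Psme2, favour peptides for presentation on class I molecules. Transcription of most subunits can rise together when proteasome activity is limiting, through the factor encoded by Nfe2l1.

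As planned, the members' promoter windows were searched for short motifs linked to these control routes. RefSeq (GRCm38.p6) gave windows from 250 bases before to 50 bases after the start of transcription for 40 of the 47 genes, 44 windows in all. The antioxidant response core TGACNNNGC was found on either strand in 6 of them (13.6%), against 12.4% of 32851 windows of all genes. The interferon response core GAAANNGAA was found in 6 (13.6%, against 8.56%) and CCAAT in 14 (31.8%, against 37.4%). These are matches of letters, not binding sites, and the first and last shares in members lay near those of all genes. The share with the interferon core rested on 6 windows, and no share was tested against that of all genes. Of the genes with the antioxidant core, Psmb5, Psmb6 and Psmd9 were called higher in knockout total RNA and Psmc6, Psmd12 and Psme4 were not. The interferon core was found in none of the windows given for the immunoproteasome genes. The windows of Psmb5 (chr14:54617946-54618245, minus strand) and Psmb6 (chr11:70525107-70525406, plus strand), both catalytic core subunits that rose in knockout total RNA, are shown for the antioxidant core, and that of Psme1 (chr14:55578244-55578543, plus strand) for the interferon core. They are written 5′ to 3′ on the gene's strand with the matched letters in capitals, and in Psme1 the match is on the opposite strand.
Psmb5: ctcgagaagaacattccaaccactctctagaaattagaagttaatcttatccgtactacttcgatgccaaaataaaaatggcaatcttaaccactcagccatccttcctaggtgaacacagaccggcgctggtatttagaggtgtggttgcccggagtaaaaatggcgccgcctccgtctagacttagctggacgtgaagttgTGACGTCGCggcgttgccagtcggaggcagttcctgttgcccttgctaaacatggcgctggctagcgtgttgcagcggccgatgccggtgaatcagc
Psmb6: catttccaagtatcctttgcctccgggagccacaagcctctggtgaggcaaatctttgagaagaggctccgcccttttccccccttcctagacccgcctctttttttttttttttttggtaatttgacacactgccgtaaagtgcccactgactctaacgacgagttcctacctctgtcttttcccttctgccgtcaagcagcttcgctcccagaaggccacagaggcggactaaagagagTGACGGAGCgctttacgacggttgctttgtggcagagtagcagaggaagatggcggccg
Psme1: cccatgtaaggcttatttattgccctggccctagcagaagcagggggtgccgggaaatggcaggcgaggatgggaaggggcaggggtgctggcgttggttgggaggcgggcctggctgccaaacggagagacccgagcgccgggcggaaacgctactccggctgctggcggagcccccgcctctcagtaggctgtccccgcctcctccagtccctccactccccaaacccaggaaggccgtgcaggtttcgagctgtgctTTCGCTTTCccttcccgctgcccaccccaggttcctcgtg

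For the targeted gene Eif4ebp2, knockout arrays lay below wild-type arrays without overlap in both RNA kinds (difference -1.90 log2 in total RNA and -2.07 in polysomal RNA), and Eif4ebp1 differed by -0.40 and -0.67. Wild-type replicate 3 of total RNA stood apart from its group. It was the lowest of the 3 wild-type total arrays for 39 of the 46 tested members, against 46.0% of all genes tested. The median of the members was 9.16 log2 on this array, against 9.53 and 9.72 on the other wild-type total arrays and 9.93 to 9.99 on the knockout total arrays. The median over 12378 probe sets too dim to test was 2.49 there, against 2.43 and 2.44 on the other wild-type and 2.34 to 2.39 on the knockout total arrays. Counts, and some of the values that change a call or move by over 1.5 times, are therefore also given without it. Other total RNA values are given with it alone, and some of these also move or change sign. Of the members' differences in total RNA, 42 of 46 were above 0 with this array and 38 without it.

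**Figure D1:**
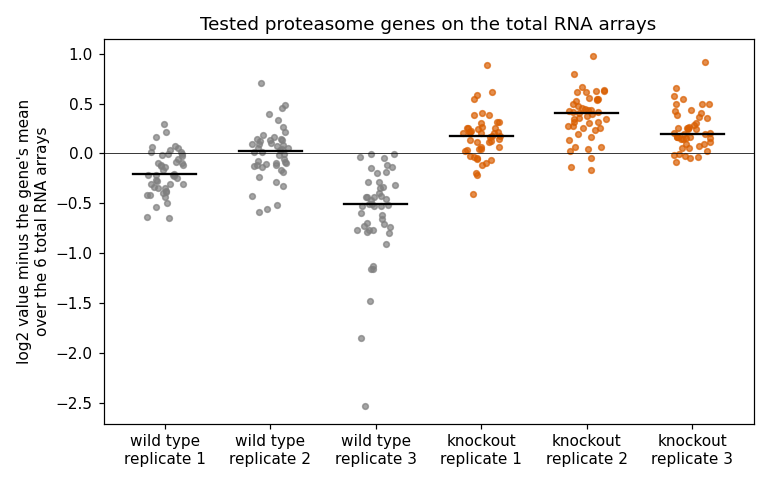
Deviation of each of the 46 tested genes (points) from its own mean over the 6 total RNA arrays, in log2 units, for each array; black lines are medians. The medians were -0.21, 0.03 and -0.51 on the wild-type arrays and 0.18, 0.40 and 0.20 on the knockout arrays, with the lowest point, -2.53, being Psmd8 on wild-type replicate 3.

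In total RNA, proteasome genes were higher in knockout than in wild-type lung. The limma fit over all 11 arrays (Benjamini-Hochberg adjusted p under 0.05) called 21 of 46 members higher and 0 lower, against 17.2% of all genes tested called higher and 5.97% lower (14.8% and 9.64% after quantile normalization, which again called 21 members higher). At an unadjusted p under 0.05, 30 members and 37.3% of all genes passed. The median difference of the members was 0.49 log2, against 0.09 for all genes tested. Of the members' differences 42 of 46 were above 0, against 4920 of 8085 for all genes tested. For 28 members every knockout array lay above every wild-type array, against 28.0% of all genes tested, and this held for all 21 that were called. Without wild-type replicate 3, 19 of these calls remained, Psmc2 and Psmd2 were lost and Psmc6 was called lower. All genes were then called higher in 18.1% and lower in 8.68%, and the median difference of the members was 0.34. In whole lung, more cells that express a gene and more RNA per cell cannot be told apart.

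The catalytic beta ring carried 4 calls among its 6 constitutive genes (median difference 0.64 log2). Here and for the other classes below, the share of all genes called higher in total RNA was 17.2%. Psmb5, the chymotrypsin-like subunit, measured 10.16, 10.48 and 10.02 log2 on the wild-type total arrays and 10.80, 10.99 and 10.79 on the knockout total arrays. All 3 knockout arrays were above the wild-type arrays, and Psmb5 rose by 0.64 (SE 0.13, limma adjusted p = 0.0078), or 1.56-fold. Psmb6, the caspase-like subunit, measured 11.19, 11.45 and 11.02 in wild type and 11.85, 11.99 and 11.70 in knockout, again without overlap. It rose by 0.63 (SE 0.12, limma adjusted p = 0.0061). Psmb2, a non-catalytic subunit, measured 6.12, 6.77 and 5.63 in wild type and 7.37, 7.30 and 7.33 in knockout. The wild-type arrays were spread widely and the knockout arrays lay close together, and the rise was 1.16 (SE 0.24, limma adjusted p = 0.0089), or 0.89 (SE 0.19, adjusted p = 0.011) without wild-type replicate 3. Psmb4, another structural beta subunit, also passed (0.64, limma adjusted p = 0.022). Psmb1, structural too, differed by 0.51 and the trypsin-like subunit Psmb7 by 0.78, without passing (adjusted p = 0.058 and 0.17). Without wild-type replicate 3 these were 0.29 and 0.23, and Psmb4 was at 0.42 (adjusted p = 0.016). The alpha ring had 1 call among 6 tested genes, a share near that of all genes. Psma7 measured 9.87, 10.21 and 8.95 log2 in wild-type and 10.51, 10.65 and 10.47 in knockout total RNA, without overlap, and rose by 0.87 (SE 0.25, limma adjusted p = 0.036). Psma5 measured 12.12, 12.29 and 11.62 log2 in wild-type and 12.43, 12.47 and 12.37 in knockout total RNA, and Psma1 11.53, 11.60 and 10.79 log2 in wild-type and 11.63, 11.97 and 11.85 in knockout total RNA. Neither overlapped between genotypes nor passed, while all 6 differences were above 0 (median 0.42). The others were Psma1 at 0.51, Psma4 at 0.43, Psma5 at 0.42, Psma2 at 0.36 and Psma6 at 0.19, with adjusted p of 0.071 or more. Without wild-type replicate 3 the ring's median was 0.19, Psma7 was at 0.51 (SE 0.11, adjusted p = 0.013) and the other 5 lay between 0.03 and 0.25.

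Of the 3 tested immunoproteasome genes, 2 rose. Psmb10, the inducible trypsin-like subunit, had the smallest adjusted p of any member: it measured 8.89, 8.80 and 8.78 log2 on the wild-type total arrays and 9.94, 10.06 and 9.89 on the knockout total arrays. Each group spanned less than the gap between them, and the rise was 1.14 (SE 0.08, limma adjusted p = 1e-04), or 2.20-fold. Psmb9, the inducible counterpart of Psmb6, measured 8.68, 8.42 and 8.12 in wild type and 9.11, 9.38 and 9.40 in knockout. It rose by 0.89 (SE 0.19, limma adjusted p = 0.011). The inducible chymotrypsin-like subunit Psmb8 measured 9.15, 9.29 and 9.23 in wild type and 9.39, 9.92 and 9.57 in knockout. Its groups did not overlap either, but its difference of 0.41 (SE 0.16, limma adjusted p = 0.091) did not pass.

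**Figure D2:**
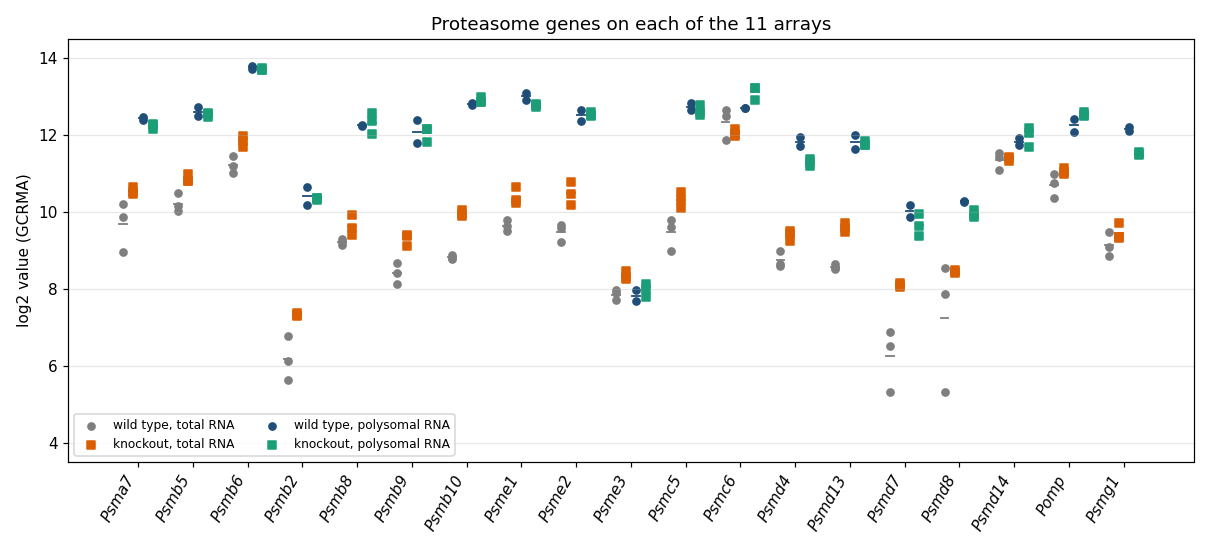
GCRMA log2 values of 19 of the genes on each of the 11 arrays (circles, wild type; squares, knockout; grey and orange, total RNA; blue and green, polysomal RNA; short lines, group means). Psmb10 and Psmd13 show tight groups that are apart in total RNA and close in polysomal RNA, while Psmd7 and Psmd8 are low on wild-type replicate 3 of total RNA (5.32 and 5.31).

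Among activators, the partners Psme1 and Psme2 rose and the core inhibitor Psmf1 was not called. Psme1 measured 9.63, 9.78 and 9.51 log2 in wild-type total RNA and 10.32, 10.65 and 10.22 in knockout total RNA, a rise of 0.75 (SE 0.12, limma adjusted p = 0.0035). Psme2 measured 9.59, 9.66 and 9.22 in wild type and 10.19, 10.79 and 10.48 in knockout, a rise of 0.996 (SE 0.16, limma adjusted p = 0.0036). Both had no overlap between genotypes. Psme2 is uncertain as a single gene, since RefSeq lists a copy, Psme2b, and the array's 2 Psme2 probe sets hold identical values. Psme3, whose product activates nuclear proteasomes, measured 7.88, 7.97 and 7.70 in wild type and 8.30, 8.47 and 8.25 in knockout, and rose by 0.49 (limma adjusted p = 0.021). Psmf1 measured 7.60, 7.50 and 7.49 log2 in wild-type and 7.54, 7.80 and 7.70 in knockout total RNA, which overlapped, with a difference of 0.16 (adjusted p = 0.22). Psme4, the other nuclear activator, was dim in total RNA, at 3.24 to 3.90 log2, and passed the filter through polysomal arrays alone.

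In the 19S base, which unfolds substrates, 4 of 6 ATPase genes passed. Psmc5 measured 9.62, 9.80 and 8.98 log2 in wild-type and 10.10, 10.52 and 10.32 in knockout total RNA. Psmc1 measured 10.55, 10.74 and 10.54 log2 in wild-type and 11.11, 11.15 and 11.05 in knockout total RNA, and Psmc3 11.05, 11.48 and 10.61 log2 in wild-type and 11.61, 11.81 and 11.80 in knockout total RNA. In all 3 the knockout arrays were above every wild-type array. Psmc5 rose by 0.84 (SE 0.20), Psmc3 by 0.69 (SE 0.18), Psmc1 by 0.50 (SE 0.12) and Psmc2 by 0.39 (SE 0.12), with limma adjusted p between 0.015 and 0.04. The ATPase gene Psmc4 differed by 0.36 (adjusted p = 0.1). Psmc6, the remaining ATPase gene, measured 12.49, 12.66 and 11.86 log2 on the wild-type total arrays and 11.99, 12.04 and 12.15 on the knockout total arrays. The knockout arrays lay between the low wild-type replicate 3 and the other wild-type arrays, giving a difference of -0.28 (SE 0.19, limma adjusted p = 0.31). Without wild-type replicate 3, Psmc6 fell by 0.52 (SE 0.12, adjusted p = 0.014). The ubiquitin receptor Psmd4 measured 8.66, 8.97 and 8.60 in wild type and 9.25, 9.51 and 9.42 in knockout, and rose by 0.65 (SE 0.12, limma adjusted p = 0.0063). The scaffold gene Psmd2 measured 9.62, 10.02 and 9.13 log2 in wild-type and 10.14, 10.46 and 10.19 in knockout total RNA. Its groups did not overlap, and it rose by 0.67 (limma adjusted p = 0.036), but by 0.44 with an adjusted p of 0.057 without wild-type replicate 3. Psmd1, the other scaffold gene, differed by 0.39 (adjusted p = 0.13).

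In the 19S lid, 3 of 8 genes passed. Psmd7, the partner of the lid's deubiquitinase, measured 6.53, 6.89 and 5.32 log2 on the wild-type total arrays and 8.06, 8.15 and 8.09 on the knockout total arrays. This was the largest difference of any member, 1.85 (SE 0.33, limma adjusted p = 0.0051), or 3.61-fold, and it was 1.39 (SE 0.18, adjusted p = 0.0016) without wild-type replicate 3. Psmd13, a structural lid subunit, measured 8.55, 8.53 and 8.65 in wild type and 9.47, 9.72 and 9.59 in knockout. Here wild-type replicate 3 was the highest of its group, and the rise was 1.01 (SE 0.11, limma adjusted p = 7e-04), or 2.02-fold. Psmd3, also structural, rose by 0.67 (limma adjusted p = 0.012). The deubiquitinase gene Psmd14 measured 11.43, 11.53 and 11.08 log2 in wild-type and 11.32, 11.41 and 11.42 in knockout total RNA. Its groups overlapped, with a difference of 0.04 (SE 0.15, adjusted p = 0.89), and the structural subunits Psmd12 and Psmd6 by -0.03 and -0.09. Psmd11, which helps hold the lid to the base, differed by 0.83 (adjusted p = 0.057), or 0.45 without wild-type replicate 3. Psmd8, the last subunit to join the lid, measured 7.86, 8.55 and 5.31 in wild type and 8.43, 8.40 and 8.50 in knockout. Its difference of 1.202 (SE 0.64, adjusted p = 0.2) rested on wild-type replicate 3, without which it was 0.24 (SE 0.17, adjusted p = 0.35).

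Assembly factors had 1 call in total RNA among 7 genes, a share near the 17.2% of all genes called higher. The call was Psmd9, a chaperone of the 19S base, which measured 5.95, 6.19 and 6.08 log2 in wild-type and 6.48, 6.71 and 6.75 in knockout total RNA. No arrays overlapped, and it rose by 0.57 (SE 0.10, limma adjusted p = 0.0052). Pomp, which matures the 20S core, measured 10.75, 10.98 and 10.37 log2 in wild-type and 10.99, 11.15 and 11.03 in knockout total RNA. Its knockout arrays lay just above the wild-type arrays, and it differed by 0.36 (SE 0.15, limma adjusted p = 0.12). Psmg1, part of the alpha-ring chaperone, measured 9.09, 9.49 and 8.85 log2 in wild-type and 9.35, 9.72 and 9.33 in knockout total RNA, and the base chaperone Psmd5 9.55, 9.78 and 8.98 log2 in wild-type and 9.64, 9.65 and 9.48 in knockout total RNA. Both overlapped between genotypes. Psmd5 and Psmd10, another base chaperone, differed by 0.15 and 0.14, and the alpha-ring chaperones Psmg1, Psmg2 and Psmg3 by 0.32, 0.04 and 0.37. All 7 assembly factor differences were above 0, but only 5 were without wild-type replicate 3. Of the genes only named after a subunit, Psme3ip1 measured 9.12, 9.24 and 9.42 log2 in wild-type and 9.49, 9.70 and 9.59 in knockout total RNA, without overlap, and rose by 0.33 (limma adjusted p = 0.043). Psmc3ip, which acts in meiotic recombination, measured 8.19, 8.05 and 7.99 log2 in wild-type and 7.97, 7.98 and 7.99 in knockout total RNA, which overlapped, and differed by -0.10 (adjusted p = 0.43).

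Without wild-type replicate 3 the class medians in total RNA were smaller throughout. They were 0.74 log2 for the immunoproteasome genes (0.89 with it), 0.48 for the constitutive beta ring (0.64), 0.44 for the scaffold and receptor genes (0.65), 0.41 for activators and inhibitor (0.49), 0.36 for the ATPases (0.44), 0.35 for the lid (0.75), 0.19 for the alpha ring (0.42) and 0.18 for assembly factors (0.32). The median of all genes was 0.07, and 38 of 46 members were above 0, against 4748 of all 8085 genes tested.

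**Figure D3:**
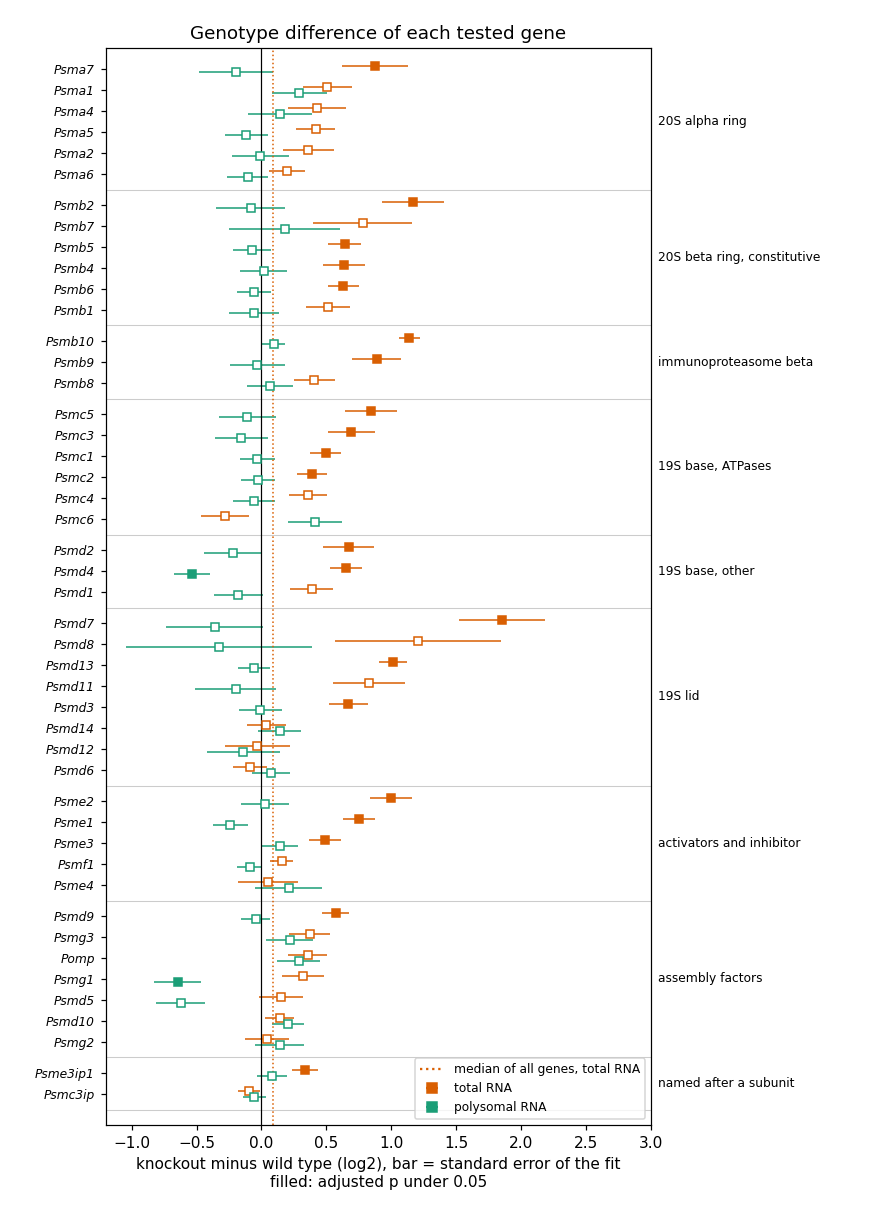
Knockout minus wild type (log2) for each of the 46 tested genes, by class, in total RNA (orange) and polysomal RNA (green), with the standard error of the fit; filled squares have adjusted p under 0.05. Orange squares lie mostly right of 0 (median 0.49) and green squares around it (median -0.05).

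On polysomes few members differed between genotypes. The fit called 0 of 46 members higher and 2 lower, against 8.36% of all genes tested called higher and 6.77% lower, and 3 members, against 31.0% of all genes, passed an unadjusted p under 0.05. The median difference of the members was -0.05 log2, against -0.01 for all genes. Psmd4 measured 11.71 and 11.94 log2 on the wild-type polysomal arrays and 11.21, 11.37 and 11.29 on the knockout polysomal arrays. All knockout arrays were below both wild-type arrays, and Psmd4 fell by 0.54 (SE 0.14, limma adjusted p = 0.029). Psmg1 measured 12.22 and 12.10 in wild type and 11.49, 11.56 and 11.50 in knockout, again without overlap, and fell by 0.64 (SE 0.18, limma adjusted p = 0.041). Leaving out wild-type polysomal replicate 2, or any 1 knockout polysomal array, ended both calls. The base chaperone Psmd5 measured 10.26 and 10.34 log2 in wild-type and 9.65, 9.75 and 9.65 in knockout polysomal RNA. It was lower on all knockout arrays, by a difference of -0.62 (SE 0.19) with an adjusted p of 0.056.

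Of the 3 members with the smallest p or largest difference in total RNA, none was called on polysomes. Psmb10 measured 12.83 and 12.79 log2 on the wild-type and 12.87, 12.98 and 12.86 on the knockout polysomal arrays, a difference of 0.09 (SE 0.09, limma adjusted p = 0.55). Psmd13 measured 12.01 and 11.65 against 11.85, 11.74 and 11.73, with the knockout arrays between the wild-type arrays (difference -0.06, SE 0.12, adjusted p = 0.81). Psmd7 measured 9.86 and 10.17 against 9.38, 9.64 and 9.94, a difference of -0.36 (SE 0.37, adjusted p = 0.57). With 2 wild-type arrays, differences of the size of these standard errors were not detectable. Psmc6, by contrast, measured 12.70 on both wild-type arrays and 12.90, 13.22 and 13.22 on the knockout arrays. All knockout arrays were higher, with a difference of 0.41 (SE 0.21, limma adjusted p = 0.21), called, among the alternatives run, only without wild-type total replicate 3 (adjusted p = 0.04).

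The remaining catalytic, activator and cap genes were compared on polysomes in the same way, and none passed. Psmb9 measured 12.38 and 11.79 log2 in wild-type and 12.17, 12.17 and 11.82 in knockout polysomal RNA, and Psmb8 12.25 and 12.26 log2 in wild-type and 12.56, 12.35 and 12.03 in knockout polysomal RNA. In both the knockout arrays overlapped the wild-type arrays or straddled them. Psme1 measured 13.10 and 12.91 log2 in wild-type and 12.72, 12.80 and 12.77 in knockout polysomal RNA, with every knockout array lower (difference -0.24, SE 0.14, limma adjusted p = 0.28). Psme2 measured 12.65 and 12.37 log2 in wild-type and 12.59, 12.50 and 12.53 in knockout polysomal RNA, with the knockout arrays between the wild-type arrays. Among core genes, Psmb5 measured 12.73 and 12.49 log2 in wild-type and 12.47, 12.58 and 12.56 in knockout polysomal RNA. Psmb6 measured 13.80 and 13.73 log2 in wild-type and 13.74, 13.69 and 13.68 in knockout polysomal RNA, and Psmb2 10.66 and 10.19 log2 in wild-type and 10.36, 10.35 and 10.32 in knockout polysomal RNA. Their groups overlapped, with differences of -0.07, -0.06 and -0.08. In the alpha ring, Psma7 measured 12.39 and 12.48 log2 in wild-type and 12.17, 12.25 and 12.29 in knockout polysomal RNA, lower on all knockout arrays, and Psma5 13.93 and 13.98 log2 in wild-type and 13.81, 13.81 and 13.91 in knockout polysomal RNA, likewise lower. Psma1 went to the other side, at 13.56 and 13.63 log2 in wild-type and 13.89, 13.93 and 13.84 in knockout polysomal RNA. The differences were -0.20, -0.12 and 0.29, with limma adjusted p from 0.41 to 0.7.

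For the ATPase genes, Psmc5 measured 12.83 and 12.64 log2 in wild-type and 12.59, 12.53 and 12.77 in knockout polysomal RNA. Psmc1 measured 12.76 and 12.42 log2 in wild-type and 12.44, 12.48 and 12.75 in knockout polysomal RNA, and Psmc3 13.14 and 13.27 log2 in wild-type and 13.01, 13.08 and 13.06 in knockout polysomal RNA. Psmc3 alone of these 3 was lower on all knockout arrays, with a difference of -0.16 (adjusted p = 0.66). Psmd2 measured 12.48 and 12.61 log2 in wild-type and 12.40, 12.41 and 12.18 in knockout polysomal RNA, lower on all knockout arrays, and Psmd14 11.92 and 11.74 log2 in wild-type and 11.68, 12.05 and 12.18 in knockout polysomal RNA, which overlapped. Pomp measured 12.09 and 12.42 log2 in wild-type and 12.53, 12.48 and 12.60 in knockout polysomal RNA, higher on all knockout arrays, with a difference of 0.29 (SE 0.17, adjusted p = 0.3). Psmd9 measured 8.33 and 8.20 log2 in wild-type and 8.28, 8.22 and 8.15 in knockout polysomal RNA, and Psmf1 7.86 and 7.86 log2 in wild-type and 7.75, 7.77 and 7.79 in knockout polysomal RNA. Psmf1 was lower on all knockout arrays (-0.09, adjusted p = 0.58) and Psmd9 overlapped. Psme3ip1 measured 10.84 and 10.75 log2 in wild-type and 10.94, 10.77 and 10.92 in knockout polysomal RNA, and Psmc3ip 7.96 and 7.95 log2 in wild-type and 7.95, 7.82 and 7.95 in knockout polysomal RNA, with differences of 0.08 and -0.05. For 5 members every knockout polysomal array was above, and for 11 every one was below, both wild-type arrays, against 23.8% and 25.2% of all genes tested.

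The difference between the genotype effects of the polysomal and total RNA was then tested as an interaction. It uses the same arrays as both contrasts above, so it is not separate evidence for either. Of 46 members, 0 were called higher and 13 lower, against 8.06% and 14.2% of all genes tested, and 25 members, against 36.6% of all genes, passed an unadjusted p under 0.05. The median was -0.57 log2, against -0.13 for all genes, and without wild-type total replicate 3 it was -0.37 against -0.11. The 4 smallest adjusted p belonged to Psmb10 (-1.04, SE 0.12, limma adjusted p = 0.0023), Psmd13 (-1.07, SE 0.17, adjusted p = 0.0048), Psmd4 (-1.19, SE 0.19, adjusted p = 0.0048) and Psme1 (-0.99, SE 0.18, adjusted p = 0.0079). These 4 calls were kept without any single array, whereas the other 9 were each lost without at least 1. Psmd7 had the largest value, -2.21 (SE 0.50, limma adjusted p = 0.016), lost without wild-type polysomal replicate 2 alone. Without wild-type total replicate 3, 12 of the 13 calls remained, with Psmb9 lost. The count called lower was then 17, against 15.8% of all genes. Psmc6 was called higher (0.93, SE 0.17, limma adjusted p = 0.0072), against 9.99% of all genes.

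Within each genotype, most proteasome messages were higher in the heavy fractions than in total RNA. Every array has a similar median over all probe sets, so polysomal minus total RNA is a difference relative to the other genes, not a share of molecules. Over the tested genes alone, medians were 8.38 to 8.60 log2 on the total and 8.74 to 8.78 on the polysomal arrays. In wild type 43 of 46 members were higher in polysomal RNA and 0 lower, against 44.5% and 27.9% of all genes tested. The median of the members was 2.07 log2, against 0.22 for all genes. In knockout 41 were higher and 1 lower, against 39.5% and 25.7%, with a median of 1.55 against 0.13. Psme4 was among those called in both, having passed the filter through the polysomal arrays. Without wild-type total replicate 3, 42 were called in wild type, Psmd14 being lost, and the median was 1.94 against 0.20 for all genes. Of all genes, 44% were then called higher. With a filter of at least 5 on all 11 arrays, 42 of 45 members were called higher in wild type and 40 of 45 in knockout. Under that filter 44% and 39% of all genes were called higher. After quantile normalization 39 of 46 members were called higher and 1 lower in wild type, against 39.8% and 33.2% of all genes. The members' median was then 1.71, against 0.06 for all genes. In knockout these counts were again 39 and 1, against 35.6% and 29.5%, with medians of 1.435 and 0.04.

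The members differed widely in this measure. In wild type it was highest for Psmb2 at 4.25 (SE 0.27), Psmb10 at 3.99 (SE 0.09), Psmd7 at 3.77 (SE 0.37) and Psmb9 at 3.68 (SE 0.21), all with limma adjusted p of 9.4e-06 or less. By class the median was 3.68 for the 3 immunoproteasome genes, 2.95 for the 3 scaffold and receptor genes, 2.54 for the constitutive beta ring, 2.19 for the lid, 2.12 for the alpha ring, 1.82 for the ATPases, 1.49 for assembly factors and 1.40 for activators and inhibitor. The low end held Psmc3ip at -0.12, Psme3 at -0.03 and Psmc6 at 0.37 (SE 0.21, or 0.13 without wild-type total replicate 3), the members that did not pass in wild type, and Psmf1 at 0.33 (SE 0.10, limma adjusted p = 0.011). Psme3 measured 7.88, 7.97 and 7.70 log2 on the wild-type total and 7.69 and 7.96 on the wild-type polysomal arrays, which overlapped. In knockout it measured 8.30, 8.47 and 8.25 in total and 8.12, 7.78 and 8.01 in polysomal RNA, lower on all 3 polysomal arrays, with a difference of -0.37 (SE 0.13, limma adjusted p = 0.024). This call ended without knockout total replicate 2 or knockout polysomal replicate 2. The values of Psme1 and Psme2 were 3.36 and 3.02 in wild type and 2.37 and 2.05 in knockout.

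**Figure D4:**
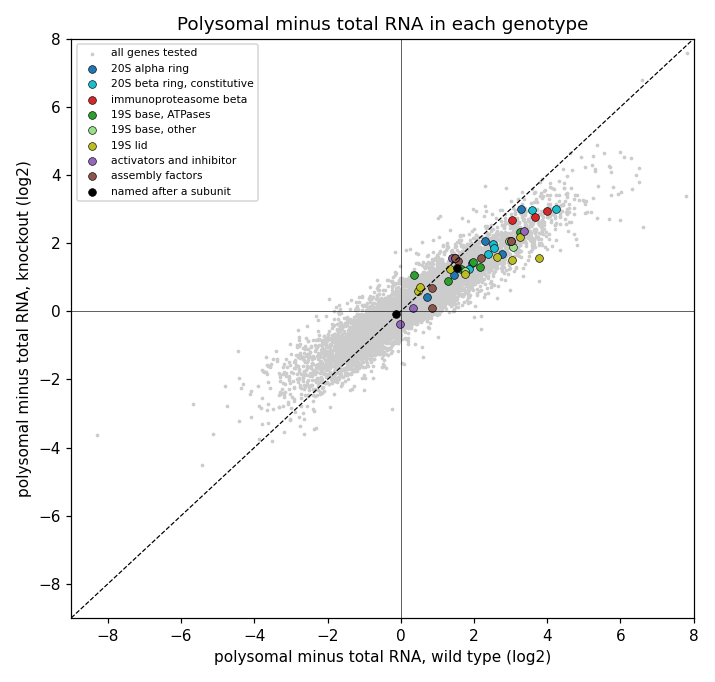
Polysomal minus total RNA (log2) in wild type (horizontal axis) and knockout (vertical axis) for all genes tested (grey) and the 46 tested genes coloured by class; the dashed line marks equal values. The slope through the coloured points was 0.66 and through all genes 0.68, so most points to the right lie under the line.

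Polysomal minus total RNA was smaller in knockout than in wild type for 39 of 46 members, against 4873 of all 8085 genes tested. A least-squares line of the knockout on the wild-type value had a slope of 0.66 over the 46 members and 0.68 over all 8085 genes. Psmd7 lay farthest below the line of equal values (3.77 in wild type and 1.56 in knockout). Psmc6 lay above it (0.37 and 1.06). Psmd5 passed in wild type and not in knockout, at 0.87 in wild type (limma adjusted p = 0.0022) and 0.09 in knockout (adjusted p = 0.66), with an interaction of -0.77 and an adjusted p of 0.056.

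Of 25 listed partners of the proteasome, 19 were tested, and their calls in total RNA were few, at 2 higher and 2 lower, against 17.2% and 5.97% of all genes. Those that rose were Vcp, the segregase that extracts ubiquitinated proteins (0.82, SE 0.13, limma adjusted p = 0.0033), and Uba1, the main ubiquitin-activating enzyme (0.50, adjusted p = 0.041). Those that fell were the shuttle factor Rad23b (which fell by 0.39, limma adjusted p = 0.04) and Nfe2l3, a relative of Nfe2l1 (which fell by 0.40, adjusted p = 0.028), and the list's median was 0.05. Nfe2l1 differed by 0.12 (SE 0.11, adjusted p = 0.46), Nfe2l2, the antioxidant response factor, by -0.10 (adjusted p = 0.75, called lower at -0.37 with adjusted p = 0.017 without wild-type replicate 3), and the ubiquitin receptor Adrm1 by 0.35 (adjusted p = 0.33). Ngly1, which processes the Nfe2l1 protein, differed by -0.28 (adjusted p = 0.096), and was called lower without that array (-0.39, adjusted p = 0.013). Without it the calls were 1 higher and 4 lower, against 18.1% and 8.68% of all genes, with a median of -0.01. Uba1 and Rad23b were lost (limma adjusted p = 0.096 and 0.083). In polysomal RNA the second activating enzyme, Uba6, rose by 0.999 (SE 0.22, limma adjusted p = 0.016) and the small lid subunit Sem1 by 0.46 (SE 0.10, adjusted p = 0.018). Sem1 was lower in the heavy fractions than in total RNA of wild type, with a difference of -1.66 (SE 0.10, limma adjusted p = 4.6e-07).

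Class I antigen processing genes, which act after the immunoproteasome, were listed as 12 genes, all tested. In total RNA 5 rose and 1 fell, against 17.2% and 5.97% of all genes, with a median of 0.44 log2. In polysomal RNA 0 were called in either direction, against 8.36% and 6.77%. Without wild-type total replicate 3, 5 rose and 0 fell in total RNA, against 18.1% and 8.68% of all genes, with a median of 0.40. Those that rose were the class I heavy chain genes H2-D1 (0.89, SE 0.18, limma adjusted p = 0.0076) and H2-K1 (0.86, SE 0.16, adjusted p = 0.0059), the chaperones Calr (0.68) and Tapbp (0.42), and Irf1 (0.45), an interferon-response factor. Nlrc5, the class I transactivator, was the one that fell (it fell by 0.69, limma adjusted p = 0.035). The chaperone Pdia3 and the peptide transporter gene Tap2 did not pass (0.51 and 0.55, adjusted p = 0.097 and 0.065). For the interaction 5 were called lower (14.2% of all genes), or 4 without wild-type total replicate 3 (15.8% of all genes). The 5 included H2-K1 at -1.21 (SE 0.24, limma adjusted p = 0.0096) and Tap2 at -0.91 (adjusted p = 0.048).

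Markers of lung and of other cells were read beside these groups. The lung markers Scgb1a1 and Sftpc reached 16.5 and 16.1 log2 in knockout total RNA, whereas the lung transcription factor gene Nkx2-1 lay at 1.854 to 1.999 on all arrays. Of all genes tested, 17.2% were called higher and 5.97% lower in knockout total RNA, or 18.1% and 8.68% without wild-type replicate 3. For lung markers 3 of 8 tested genes rose in knockout total RNA, or 5 without wild-type replicate 3. Their summed level was 17.5 to 17.9 in wild type and 18.04 to 18.06 in knockout. Of 8 tested markers of blood-borne cells, which are rich in immunoproteasome, 1 rose in total RNA (Coro1a, 0.93, limma adjusted p = 0.0048). Without wild-type replicate 3, 2 rose. The summed levels of these markers were 12.9 to 13.4 in wild type and 13.2 to 13.6 in knockout. Cd3e, a T cell marker, was under the filter on all arrays. In polysomal RNA 1 of the 8 rose (Ptprc, 0.84, limma adjusted p = 0.011), with sums of 13.9 to 14.1 and 14.1 to 14.4. Of all genes, 8.36% were called higher and 6.77% lower there. Of the macrophage and neutrophil markers 3 of 7 were lower in knockout total RNA, with sums of 14.6 to 15.4 against 14.1 to 14.4, and Marco under the filter. Of the heart muscle markers 3 of 7 were higher (Myl4, Tnnc1 and Actc1), with sums of 10.8 to 11.6 against 11.6 to 12.1, and Myh6 under the filter. The macrophage and heart counts in total RNA were the same without wild-type replicate 3. In polysomal RNA the ciliated-cell gene Foxj1 among the lung markers was lower (-1.27, limma adjusted p = 0.0026), as were Chil3 (-0.89) and Ear1 (-0.80) among the macrophage markers, and Tnnc1 among the heart markers was higher (1.06, adjusted p = 0.027). The part of these cells in the proteasome differences was not tested.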

How the data were processed

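RNA from mouse lung was hybridised to 1-colour Affymetrix arrays after 2-cycle labelling of 100 ng, per the labels' protocols. The deposited values are log2 values, 1 per probe set and array, made by the authors with GCRMA, per the submitters' processing notes; the log2 scale follows from their range, and neither the version nor the probe grouping is given in the sources used here. Probe sets carry RefSeq accessions, and 15228 of 26180 matched a gene in the RefSeq table of GRCm38.p6; the probe set with the highest mean stood for a gene. Probe sets at log2 5 or more on at least 2 arrays (13802) were fitted with limma 3.58.1 in R 4.3.3 (lmFit and eBayes, 4 group means over all 11 arrays), with Benjamini-Hochberg adjustment over all of them and a two-sided threshold of 0.05. Counts and medians over all genes use the 8085 tested genes. The fit was tested on simulated data.

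The members, the gene lists and the tests were chosen with earlier results of these data known. By rule, values on every array were given for the 2 members of each class with the smallest p for genotype in total and in polysomal RNA, the 4 with the largest and the 4 with the smallest polysomal minus total difference in wild type, the immunoproteasome genes, Pomp, Psme1 and Psme2; of each list up to 4 passing genes per contrast, by smallest p, plus Nfe2l1 and Nfe2l2. Others, such as Psmd8, Adrm1, Ngly1, Pdia3 and Tapbp, were named after their values were seen. Alternatives covered filters, moderation, normalization, replicate blocks, repeated rows, the threshold, a minimum fold of 1.5, the arrays in the fit, the probe set rule and leaving out each array. For arrays, their number limits the precision. A planned description of coding length was not made, since no protein table was used here. Each array's set letter was checked for pairing. Within an RNA kind, deviations of the 6 same-letter pairs correlated at -0.05 to 0.12, and the main fit did not use the letters. With 2 or 3 arrays per group, this check cannot exclude that the letters mark batches. The plots were made in Python 3.11.15 (matplotlib 3.10.9).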

Additional observations from a re-analysis of the deposited data

Results flagged for a closer look

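The genotype difference itself differed between polysomal and total RNA for the genes given here, by the interaction term of the limma fit (polysomal minus total RNA difference in log2 units, with its Benjamini-Hochberg adjusted p). Among core subunits these were Psmb10 (-1.04, adjusted p = 0.0023), Psmb2 (-1.25, adjusted p = 0.036), Psmb5 (-0.71, adjusted p = 0.028), Psmb6 (-0.69, adjusted p = 0.024) and Psmb9 (-0.92, adjusted p = 0.047). Among cap and base-chaperone genes they were Psmc5 (-0.95, adjusted p = 0.047), Psmd13 (-1.07, adjusted p = 0.0048), Psmd4 (-1.19, adjusted p = 0.0048), Psmd7 (-2.21, adjusted p = 0.016) and Psmd9 (-0.62, adjusted p = 0.023). Among activators and alpha-ring chaperones they were Psme1 (-0.99, adjusted p = 0.0079), Psme2 (-0.97, adjusted p = 0.024) and Psmg1 (-0.96, adjusted p = 0.023). Class I genes with the same direction were Calr (-0.68, adjusted p = 0.023), H2-D1 (-1.09, adjusted p = 0.02), H2-K1 (-1.21, adjusted p = 0.0096) and Irf1 (-0.58, adjusted p = 0.031). Tap2, also a class I gene, had this direction too (-0.91, adjusted p = 0.048). Genes with the opposite direction were Rad23b (0.67, adjusted p = 0.025), Sem1 (0.50, adjusted p = 0.031) and Uba6 (1.06, adjusted p = 0.03), all listed as proteasome partners. No group of arrays held the 4 to 10 arrays that a test for a single outlying array needs.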

How the results depend on the processing

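Each count was recomputed under 24 alternatives or, for the interaction, all that applied. In total RNA the 21 called members became 10 at adjusted p under 0.01, against 7.83% of all genes called higher. When 1 array was left out they became between 11 (without knockout replicate 2) and 29 (without wild-type replicate 2). The shares of all genes called higher were then 9.68% and 17.2%. Of the 21, 11 were kept without any single array: Psmb2, Psmb5, Psmb6, Psmb9, Psmb10, Psmd4, Psmd7, Psmd9, Psmd13, Psme1 and Psme2. In a fit of the total RNA arrays alone 14 were called, against 13.7% of all genes called higher. The 2 polysomal calls became 1 with no filter on low values and 1 with a minimum of 1.5-fold, 0 at adjusted p under 0.01, and 0 to 4 when 1 array was left out. The 13 interaction calls became 4 at adjusted p under 0.01, or 8.7% of members, against 3.59% of all genes called lower. They became 5 to 19 when 1 array was left out. The 5, without wild-type polysomal replicate 1, were 10.9% of members, near the 9.77% of all genes called lower. The 19, without wild-type total replicate 2, were 41.3%, against 15.3%. With the set letter as a replicate block within each RNA kind, 17 members were called in total RNA, against 14% of all genes called higher. In polysomal RNA 0 were called, against 5.43% higher and 4.17% lower. For the interaction 5 were called, or 10.9% of members, near the 9.09% of all genes called lower. A replicate block over all arrays gave 20, 0 and 9 members. Of all genes, 15.3% were then called higher in total RNA and 10.1% lower for the interaction. In polysomal RNA 6.83% of all genes were called higher and 5.48% lower. The meaning of the letters is unknown, and they may mark batches. Wild-type replicate 3 was the only wild-type total array in set B, beside knockout replicates 2 and 3. The members' polysomal calls and part of their interaction calls thus depended on leaving the letters out of the fit. The shares of all genes called were also smaller with the letters in it. Between polysomal and total RNA the counts stayed within 1.5 times of 43 and 42 under all alternatives run. A call or list median of more than 0.1 in size changed sign in 2 cases: Psmd14, polysomal minus total RNA in wild type, was 0.48 and became -0.003 with the replicate block within RNA kind, and the class I list's median in polysomal RNA, -0.14, became 0.021 without wild-type polysomal replicate 1 and -0.281 without replicate 2. The cause was not tested. Over the 62 genes and 5 contrasts followed, 169 differences were called and 1 of them, Psmd14 above, changed sign under some alternative, as did 39 of the 141 that were not called; the latter include Psmd12 and Nfe2l2 in total RNA, so their direction is not settled. With no filter on low values, all genes were called higher in 10.9% and lower in 18.5% in total RNA, with a median of -0.04. Quantile normalization moved the share of all genes called lower in total RNA from 5.97% to 9.64% and the median of all genes from 0.09 to 0.02 log2, and called 21 members higher, 19 of them among the original 21, and 0 lower. The number of arrays limits all counts.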
